A study of Mus musculus with 2 samples.

Results

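The 7 genes described here are Cxcl12, Cxcl13, Cxcl14 and Cxcl16, which encode chemokines, Cxcr6, which encodes the receptor of Cxcl16, and Vcam1 and Icam1, which encode adhesion molecules. They were taken by name from the 19465 genes of a spatial transcriptome of mouse melanoma, as genes tied to the holding of lymphocytes in tissue, and they were chosen by name with their section levels, tissue and edge levels, correlations with CD3 and B cell genes and Moran's I in these sections known. Their levels are therefore a description. In GRCm38, Cxcl12 lies at chr6:117168535-117181368, Cxcl13 at chr5:95956939-95961068, Cxcl14 at chr13:56288643-56296811, Cxcl16 at chr11:70454389-70459984, Cxcr6 at chr9:123806477-123811754, Vcam1 at chr3:116110020-116129688 and Icam1 at chr9:21015940-21028814.

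Gene expression was measured with Visium CytAssist, an assay that ligates probe pairs on fixed sections and captures them on a grid of barcoded spots. A spot can cover several cells. The KO section came from a mouse labelled Foxp3-Cre × CK2b-fl/fl, in which a Cre driven by the Foxp3 promoter removes Csnk2b, the regulatory subunit of the kinase CK2, from regulatory T cells. The WT section came from a mouse whose genotype is labelled wild-type and whose title is Csnk2bfl/fl, so it shares the floxed allele, and no Cre is named. Both mice were 8 to 16 weeks old, untreated and inoculated with B16.F10, a transplanted pigmented melanoma line, and the tumours, of similar size, were taken on day 15, fixed in formalin and cut at 10 µm. With 1 tumour per genotype, no difference between the sections has a replicate check, so no p-value is given. Intervals are at 95% and cover counting error only.

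Chemokines are secreted proteins that bind heparan sulphate on cells and matrix and guide leukocytes that carry the matching receptor. Cxcl12 acts through Cxcr4 and holds many leukocytes near stromal cells, Cxcl13 draws Cxcr5-bearing B cells and follicular helper T cells, and Cxcl16 is made as a membrane protein that can hold Cxcr6-bearing T cells or be shed. Vcam1 and Icam1 are immunoglobulin-type surface proteins of endothelium, stroma and myeloid cells to which leukocyte integrins attach, and both are known to be induced by inflammatory cytokines.

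The KO section held 2746 spots and 94422680 unique molecular identifiers (UMIs), with a median of 36769 UMIs per spot, and the WT section held 3066 spots, 88735936 UMIs and a median of 26818.5. Probes of 15 genes of other organs, read as background, had a median of 39 UMIs in the KO and 19 UMIs in the WT section. Melanocyte genes fitted the label in both sections, with 8878 CPM of Tyrp1 in the KO and 7545 CPM in the WT section, where CPM is counts per 1e6 UMIs of the spots summed. Csnk2b stood at 392 CPM in each section, which does not check a deletion limited to regulatory T cells, and Foxp3 gave 51 UMIs in the KO and 32 UMIs in the WT section, both under 2 times the background. The 3 CD3 genes summed to 27.0 CPM in the KO and 7.88 CPM in the WT section. Genes of the Y chromosome gave 1477 UMIs in the KO and 0 in the WT section. The sections also differed in the tissue they caught: of the skeletal muscle list 14 of 14 genes, and of the fibroblast matrix list 0 of 16, reached 2-fold above WT, while 14 of those 16 were 2-fold or more below it. The sex of the hosts is not given in the labels, and genotype, sex, tumour and tissue caught cannot be told apart here.

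Start-site windows of 5 of the 7 genes were in the RefSeq table of GRCm38.p6 (250 bases before and 50 after a start), and 3 of them are shown. These are the member that differed most in level, the member that differed most in layout and Icam1, the only adhesion gene with a window. They were searched on both strands for 2 forms of sites bound by NF-kB factors, a longer one (GGGA and CC with any 4 bases between) and GGNNTTTCC, for TTCNNNGAA, the form bound by STAT factors, and for TATAAA; matches are in capitals and none of them overlap.
Cxcl13 (chr5:95956689-95956988, plus strand): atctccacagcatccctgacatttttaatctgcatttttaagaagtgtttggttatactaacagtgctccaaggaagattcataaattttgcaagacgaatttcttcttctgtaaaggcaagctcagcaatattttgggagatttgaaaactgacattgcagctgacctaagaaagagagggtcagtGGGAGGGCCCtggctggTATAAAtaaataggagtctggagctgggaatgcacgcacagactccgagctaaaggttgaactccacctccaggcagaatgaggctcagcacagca
Cxcl14 (chr13:56296502-56296801, minus strand): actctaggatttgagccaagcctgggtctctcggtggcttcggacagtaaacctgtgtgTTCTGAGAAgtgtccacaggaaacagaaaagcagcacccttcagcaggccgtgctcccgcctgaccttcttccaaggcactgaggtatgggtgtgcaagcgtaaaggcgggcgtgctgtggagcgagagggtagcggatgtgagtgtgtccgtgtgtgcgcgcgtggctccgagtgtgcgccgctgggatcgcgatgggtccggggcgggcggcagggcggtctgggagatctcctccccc
Icam1 (chr9:21015690-21015989, plus strand): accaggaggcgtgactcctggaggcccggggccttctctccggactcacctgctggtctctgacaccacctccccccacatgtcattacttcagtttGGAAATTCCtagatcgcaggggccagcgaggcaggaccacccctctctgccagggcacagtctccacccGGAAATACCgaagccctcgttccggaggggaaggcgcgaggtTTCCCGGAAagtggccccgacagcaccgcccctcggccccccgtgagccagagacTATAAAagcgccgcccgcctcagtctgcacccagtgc
The Cxcl13 window holds the longer form 63 bases and TATAAA 46 bases before the start. Icam1 has GGNNTTTCC on the minus strand 153 and 84 bases before the start, TTCNNNGAA 42 bases before it and TATAAA after it, and Cxcl14 has TTCNNNGAA 191 bases before it. Of all 32851 windows in the table, 20.7% hold the longer NF-kB form, 5.82% GGNNTTTCC, 8.30% TTCNNNGAA and 13.6% TATAAA. The start used for Cxcl14 and its whole window, with the match in it, lie inside the annotated gene. The windows of Cxcl12 and Cxcr6 held none of these letters. Vcam1 and Cxcl16 had no window in the table and were not searched.

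Summed over each section as counted, Cxcl13 and Cxcr6 were more than 2-fold higher in the KO section, Cxcl16 was lower, and the other 4 genes differed by less than 1.2-fold. Cxcl13 had 372 UMIs in the KO and 15 UMIs in the WT section, where it lay below the probe background and no spot held more than 1 UMI. The UMIs as counted give a KO over WT ratio of CPM of 23.3, and set against the WT background median of 19 UMIs the KO level was 18.4-fold higher, but no fold is settled because the WT level was not above background. Cxcr6 had 400 UMIs in the KO and 134 UMIs in the WT section, a ratio of 2.81 (2.30 to 3.44). In summed spots, fewer cells of a type and less RNA per cell cannot be told apart. The quadrants of the KO section, cut at the median spot row and column, held 0.931 to 10.4 CPM of Cxcl13, and those of the WT section 0.0557 to 0.490 CPM. For Cxcr6 they overlapped, at 2.27 to 7.70 CPM in the KO and 0.578 to 2.68 CPM in the WT section. A single KO quadrant, the one with the highest CD3 level of 49.5 CPM, held 53.3% of the Cxcr6 UMIs of that section, and without it the ratio was 1.86.

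Cxcl16 had 1544 UMIs, or 16.4 CPM, in the KO section, against 2705 UMIs, or 30.5 CPM, in the WT section. Its ratio of 0.536 (0.504 to 0.571) was the only one under 0.8, and its quadrants overlapped, at 10.7 to 24.8 CPM in the KO and 9.45 to 63.7 CPM in the WT section. Cxcl14 reached 17.5 CPM in the KO and 15.3 CPM in the WT section, a ratio of 1.14 (1.06 to 1.23). Cxcl12 was at 29.7 CPM in the KO and 26.8 CPM in the WT section, a ratio of 1.11 (1.05 to 1.17). The adhesion genes were both slightly lower in the KO section. Vcam1 had 12.1 CPM in the KO and 13.5 CPM in the WT section (ratio 0.895, 0.825 to 0.971), and Icam1 5.45 CPM in the KO and 6.47 CPM in the WT section (ratio 0.843, 0.747 to 0.951). All 4 of these near-equal genes changed the side of 1 on which their ratio lay when a quadrant of a section was left out, so the direction of each depends on which tissue is counted. By a 2-fold limit, 2 of the 7 genes were higher in the KO section, beside 14.9% of all measured genes, and 0 were lower, beside 4.88%. Where genes needed 500 UMIs in the section with more of them, the shares of all genes were 0.839% higher and 5.06% lower. Cxcl13, with 372 UMIs in the KO section, and Cxcr6, with 400, fell short of that limit, so their count is not comparable with these shares.

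**Figure D1:**
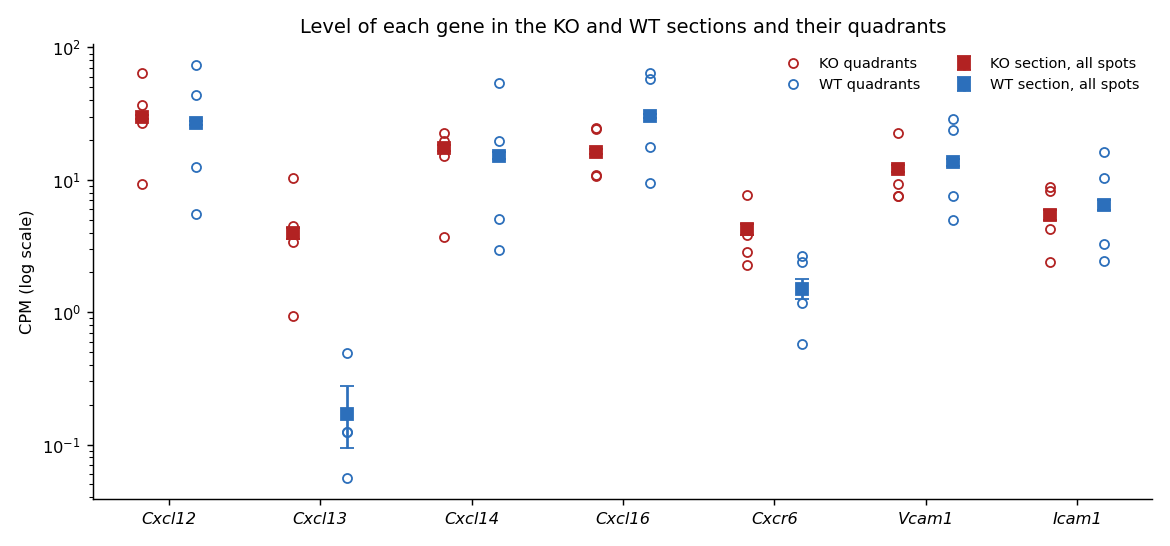
Level of each gene (vertical axis, CPM on a log scale) in the KO section, left of each pair, and the WT section, right; squares are all spots with 95% counting intervals and open circles the 4 quadrants. The KO and WT quadrants separate for Cxcl13 alone, with 0.931 to 10.4 CPM in the KO and 0.0557 to 0.490 CPM in the WT section.

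The near-equal totals of Cxcl14 lay in different tissue. Each spot was put in 1 of 6 classes by its share of UMIs from lists of muscle, adipocyte, fibroblast matrix, macrophage and melanocyte genes, with cutoffs shared by the sections. Cxcl14, a chemokine of epithelia and stroma whose receptor is not settled, had 1310 of its 1648 KO UMIs (79.5%) in the 228 muscle-rich spots, a level of 370 CPM (351 to 391). In the WT section 1.92% of its UMIs lay in the 63 muscle-rich spots, at 22.3 CPM (14.5 to 32.6), while 52.3% lay in collagen-rich spots (59.0 CPM) and 25.6% in fat-rich spots (211 CPM). The collagen-rich spots of the KO section held Cxcl14 at 17.9 CPM (11.2 to 27.0), so its KO over WT ratio was 16.6 (11.3 to 25.6) in muscle-rich and 0.303 (0.188 to 0.462) in collagen-rich spots. With wider classes (90th and 70th percentiles) these ratios were 3.62 and 0.261, and with cutoffs set within each section 11.1 and 0.582. All 28 KO spots with the most Cxcl14 were muscle-rich, whereas the 31 WT spots with the most were 18 collagen-rich, 11 fat-rich and 2 macrophage-rich. Keratinocytes are a known source of Cxcl14, and their 11 listed genes summed to 7.72 CPM in the KO and 5.95 CPM in the WT section. Of 8 measured ones 5 were 2-fold or more higher in the KO section, beside 14.9% of all measured genes and 6 of 11 measured background genes. Where 200 UMIs were needed, it was 0 of 2. Sfn had 277 UMIs in the KO and 304 UMIs in the WT section, Krt10 104 and 133, Krt1 71 and 21, Krt15 66 and 0, Krt14 50 and 18 and Krt5 21 and 10. Krt1, Krt15, Krt14 and Krt5 were under 2 times the background in both sections. The part of keratinocytes in the Cxcl14 level was not tested.

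At a like amount of muscle genes, the direction of the Cxcl14 difference depended on that amount. In spots with under 100 CPM of the muscle list Cxcl14 was lower in the KO section, at 3.06 CPM (2.71 to 3.45) in 2415 KO spots. The 2907 WT spots of that range held 14.1 CPM (13.3 to 14.9). In spots with 100 to 1000 CPM of the muscle list Cxcl14 was higher in the KO section, at 70.3 CPM (62.1 to 79.2) in 179 KO spots. The 135 WT spots of that range held 49.2 CPM (41.3 to 58.1). Muscle-rich spots formed patches, set apart after the maps had been seen, of which 2 KO patches and 1 WT patch held over 5000 CPM of the muscle list. The KO patch of 86 spots, 91.9% of them at the tissue rim, had 5096 CPM of muscle genes, 381 CPM of Cxcl14 and 178 CPM of CD3 genes. The KO patch of 77 spots had 16576 CPM of muscle genes, 587 CPM of Cxcl14 and 205 CPM of CD3 genes. The WT patch, of 30 spots, lay between them in muscle, at 9163 CPM, but had 57.2 CPM of Cxcl14 from 16 UMIs and 3.57 CPM of CD3 genes (1 UMI). Another KO patch, of 28 interior spots with 40386 UMIs in all and 1114 CPM of muscle genes, had 0 Cxcl14 UMIs. The 86-spot and 77-spot KO patches also held 18215 and 21629 CPM of erythroid genes, against 1079 CPM in the WT patch, and 7144 and 18005 CPM of fibroblast matrix genes, against 41777 CPM. The part of these differences in the Cxcl14 level was not tested. Within the 228 KO muscle-rich spots, Cxcl14 correlated with the adipocyte list (r = 0.72), the muscle list (0.63), the macrophage list (0.60), the CD3 genes (0.58), the endothelial list (0.56), the fibroblast matrix list (0.52) and the melanocytic list (-0.57), all over spots of 1 library. In the 63 WT muscle-rich spots r was 0.54 with the adipocyte list, 0.42 with the muscle list and -0.08 with the CD3 genes.

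**Figure D2:**
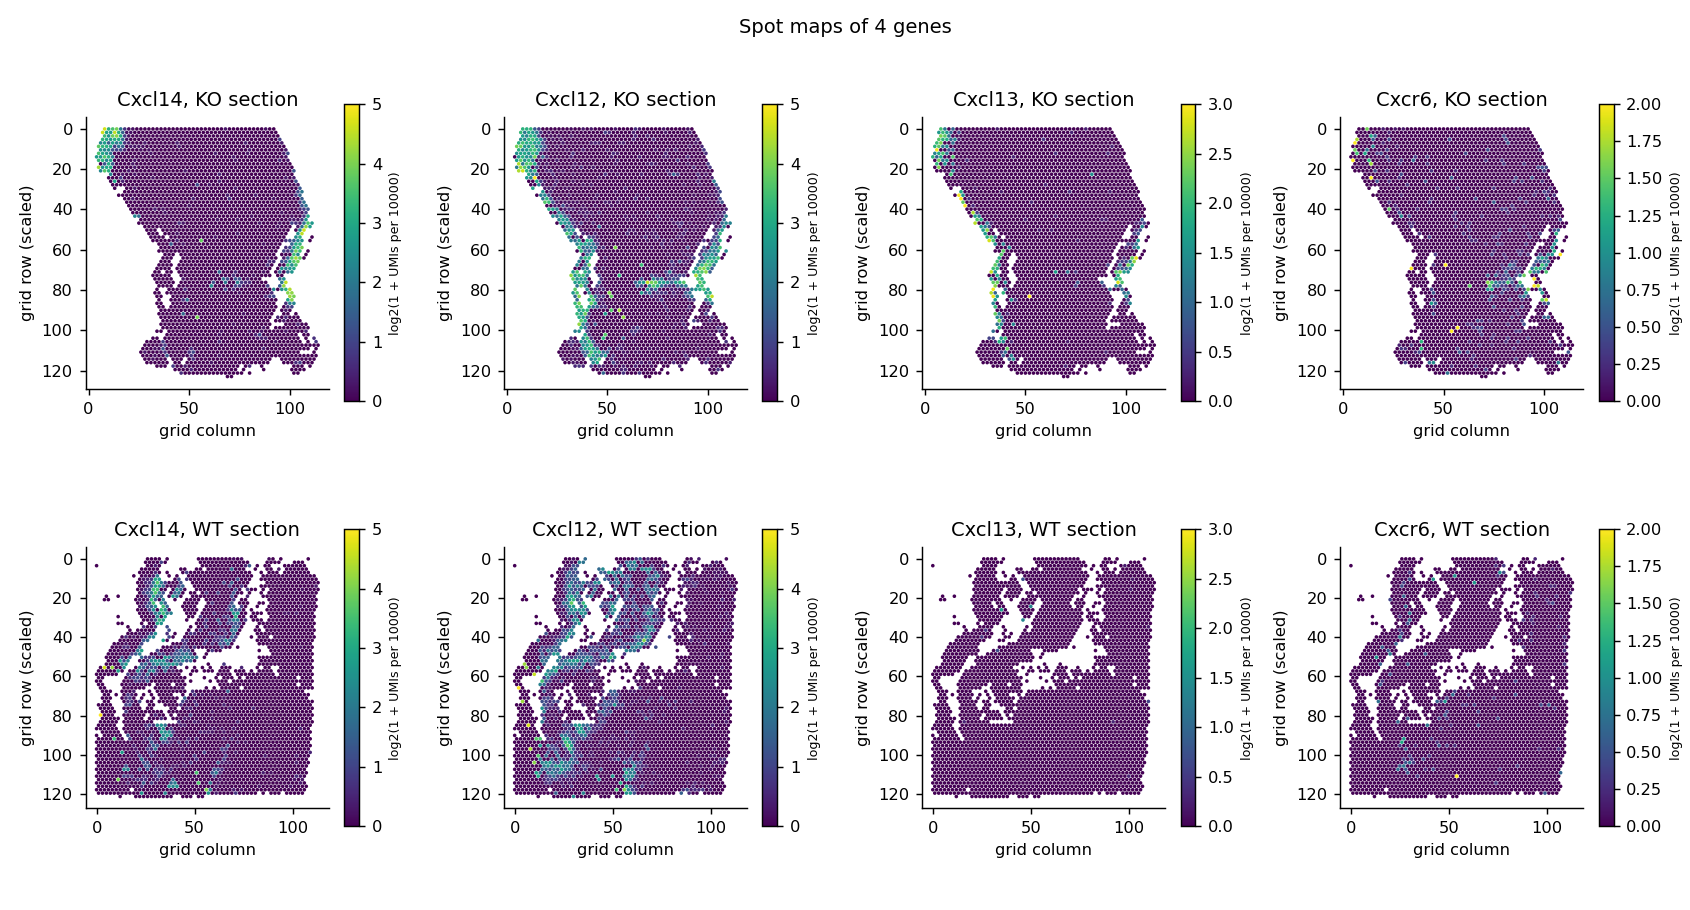
Spot maps of Cxcl14, Cxcl12, Cxcl13 and Cxcr6 in the KO section (top) and the WT section (bottom); each point is a spot at its grid column and row (rows stretched to the hexagonal grid's shape), coloured by log2(1 + UMIs per 10000 UMIs), on a scale that differs between genes; spots above the top of a scale take its last colour. The 1% of spots with the most Cxcl14 hold 42.9% of its UMIs in the KO and 22.2% in the WT section, and Cxcl13 has 15 UMIs in the whole WT section.

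Cxcl12 peaked in collagen-rich KO spots and in fat-rich WT spots. Its KO level was 545 CPM (505 to 588) in the 160 collagen-rich spots, 271 CPM in muscle-rich, 241 CPM in fat-rich and 236 CPM in macrophage-rich spots, the last 3 with overlapping intervals. In the WT section it was 122 CPM (116 to 129) in the 828 collagen-rich spots, 222 CPM in fat-rich, 66.6 CPM in macrophage-rich and 33.4 CPM in muscle-rich spots. The collagen-rich ratio was 4.46 (4.06 to 4.89), and the levels in melanocytic-rich spots were 4.73 CPM in the KO and 4.56 CPM in the WT section, a ratio of 1.04 (0.873 to 1.23). The collagen-rich ratio was 2.71 with the wider classes and 1.40 with cutoffs set within each section. In macrophage-rich spots the ratio was 3.54 (2.50 to 5.15), and 4.07 with the wider classes. It fell below 1 there, to 0.402 (0.321 to 0.503), with cutoffs set within each section. Collagen-rich spots made up 5.83% of spots in the KO and 27.0% in the WT section. Collagen-rich spots of the KO section also held 19842 CPM of macrophage genes against 6467 CPM in the WT ones, and 39891 CPM of fibroblast matrix genes against 87803 CPM, whose part in the Cxcl12 level was not tested.

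Cxcl13 in the KO section sat on the same margins. It was at 92.5 CPM (76.3 to 111) in collagen-rich and 46.9 CPM (40.1 to 54.6) in muscle-rich spots, and at 0.376 CPM in melanocytic-rich spots. No class of the WT section had more than 7 UMIs of it. There were 40 KO spots with at least 3 Cxcl13 UMIs, and of the 142 spots within 1 step of them 124 were within 2 steps of the tissue edge, 76 muscle-rich and 49 collagen-rich. CD3 genes reached 300 CPM there and 21.7 CPM in the rest of the KO section, and macrophage genes 13738 and 1385 CPM. Ltb, a lymphotoxin chain that induces Cxcl13 in lymphoid stroma, was at 58.7 CPM near these spots and 2.90 CPM elsewhere. Lta, another lymphotoxin chain, had 5 UMIs near them (2.79 CPM, against 0.874 CPM elsewhere), and the receptor gene Ltbr was at 201 and 188 CPM. The part of these genes in the Cxcl13 level was not tested. B cell genes summed to 68.7 CPM (123 UMIs) near these spots and 16.9 CPM in the rest, and plasma cell genes to 128 and 8.42 CPM, while Ms4a1, Cr2 and Cxcr5, the receptor of Cxcl13, had 2, 3 and 4 UMIs there. The 5 genes most concentrated near them were Pvalb, Atp2a1, Tnnc2, Sln and Tcap, all of skeletal muscle, at 97.3 to 119 times their level in the rest of the section. These spots were shallow, with a median of 9350.5 UMIs against 38207 UMIs in the rest.

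Cxcl16 was spread over several classes in both sections. In the KO section it was at 111 CPM in macrophage-rich, 101 CPM in fat-rich and 98.4 CPM in muscle-rich spots, whose intervals overlapped, and at 69.8 CPM in collagen-rich spots. In the WT section it was at 125 CPM in fat-rich, 99.5 CPM in collagen-rich and 97.2 CPM in macrophage-rich spots, and at 16.3 CPM in muscle-rich spots. With these cutoffs muscle-rich spots were the only class in which its ratio was above 1.2, at 6.05 (3.82 to 10.2), and with the wider classes the ratio was 2.78 there and 1.22 in macrophage-rich spots. In melanocytic-rich spots, which hold most UMIs of both sections, Cxcl16 was at 6.83 CPM in the KO and 10.9 CPM in the WT section, a ratio of 0.625 (0.552 to 0.709). Beside its lower KO total stood lower levels in melanocytic-rich and collagen-rich spots and fewer collagen-rich spots.

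Cxcr6, found on effector and resident T cells and on NKT cells, was higher in the KO section in all 6 classes, although the WT muscle-rich and macrophage-rich spots held 1 UMI each. It reached 29.9 CPM in fat-rich, 21.4 CPM in macrophage-rich, 19.5 CPM in muscle-rich and 14.6 CPM in collagen-rich KO spots, with overlapping intervals, and 2.19 CPM in melanocytic-rich spots. The WT levels were 0.817 to 6.09 CPM, and neighbours in their order all had overlapping intervals. Relative to T cell genes, there were 15.7 Cxcr6 UMIs per 100 CD3 UMIs in the KO section (400 over 2549) and 19.2 in the WT section (134 over 699), a ratio of 0.819 whose interval of 0.659 to 1.02 includes 1. Melanocytic-rich spots gave 17.0 in the KO and 21.7 in the WT section, and collagen-rich spots 15.3 and 16.7.

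Vcam1 and Icam1 had their highest levels outside the melanocytic-rich spots in both sections. Vcam1 was at 96.5 CPM in fat-rich, 74.3 CPM in macrophage-rich and 71.3 CPM in muscle-rich KO spots, and at 69.4 CPM in fat-rich and 49.5 CPM in collagen-rich WT spots. In collagen-rich spots it was lower in the KO section, at 30.8 CPM against 49.5 CPM, and Icam1 was higher there, at 55.2 CPM against 18.8 CPM in the WT section. The KO over WT ratios in that class were 0.623 (0.436 to 0.865) for Vcam1 and 2.93 (2.20 to 3.86) for Icam1. For Icam1 it was 1.61 with the wider classes and 1.21 (0.955 to 1.53) with cutoffs set within each section. In muscle-rich spots both were higher in the KO section, by 3.20 and 4.48 times, or 2.17 and 2.13 times with the wider classes. In melanocytic-rich spots Icam1 was at 2.16 CPM in the KO and 2.23 CPM in the WT section, with a ratio interval of 0.751 to 1.25.

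**Figure D3:**
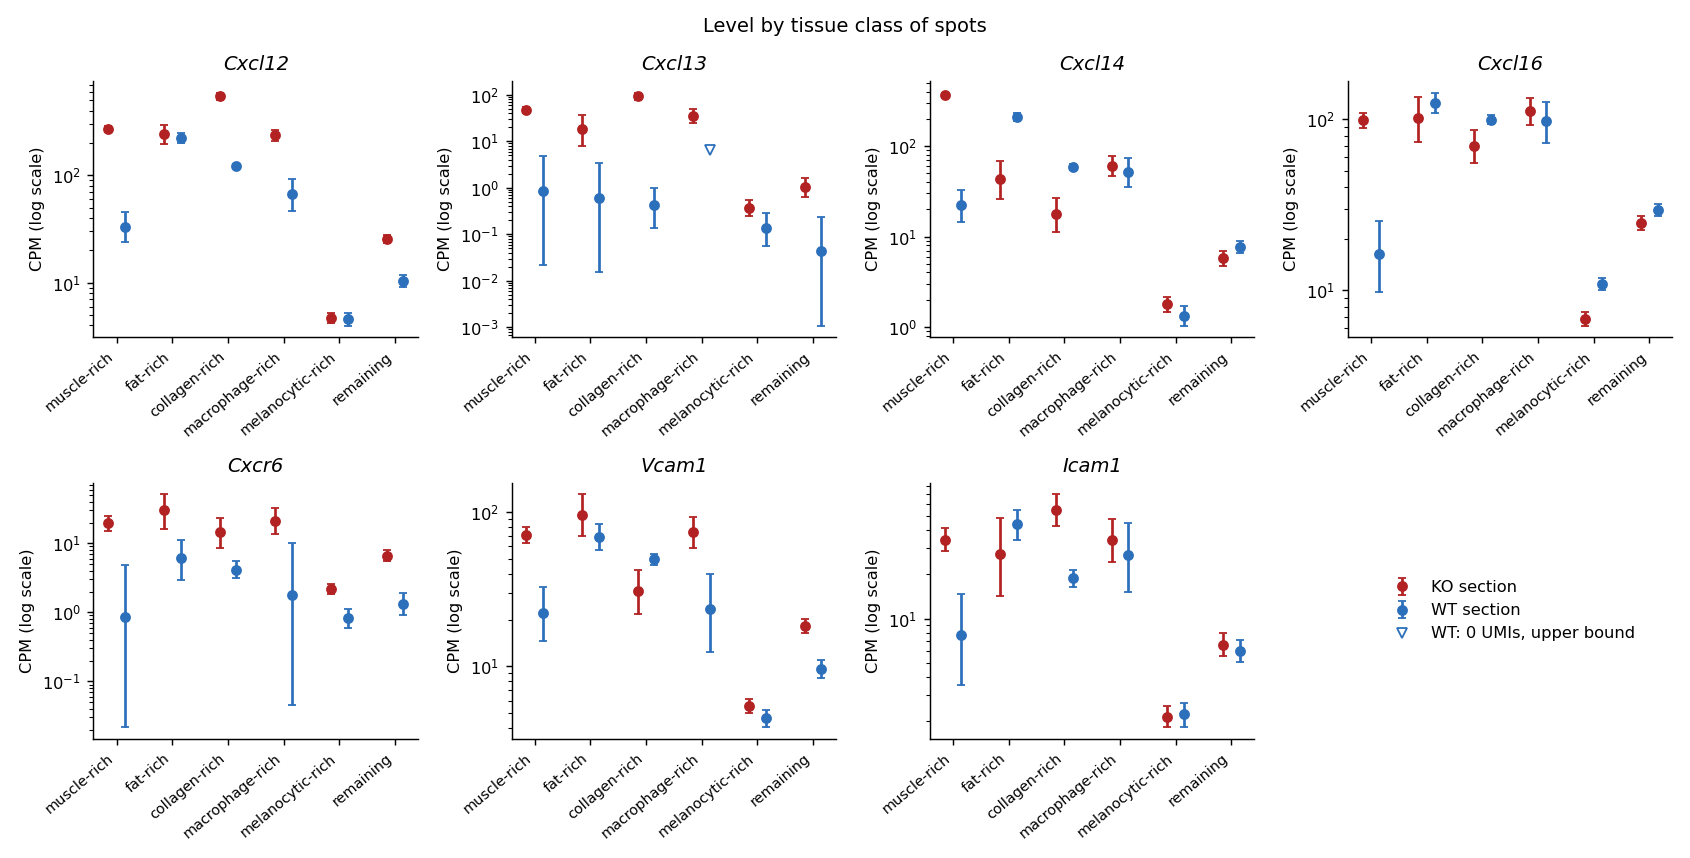
Level of each gene (vertical axis, CPM on a log scale) in 6 tissue classes of spots, KO left in red and WT right in blue, with 95% counting intervals; the open triangle is the upper bound where the WT section had 0 UMIs. In muscle-rich spots all 7 genes are higher in the KO section; in collagen-rich spots Cxcl14, Cxcl16 and Vcam1 are lower in it and the other 4 higher.

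All 7 genes were higher at the KO tissue edge than in its depth. From 1 to 2 steps to 11 or more steps inside, Cxcl14 was at 56.0, 14.1, 2.32 and 0.942 CPM in 4 bins of the KO section, and at 19.8, 17.1, 8.37 and 5.54 CPM in those of the WT section. Cxcl16 ran through 38.0, 17.6, 8.01 and 2.83 CPM in the KO section, while in the WT section it was at 32.4, 31.4, 27.9 and 24.9 CPM. The rim over deepest ratio of Cxcl14 was 59.5 (37.5 to 101) in the KO and 3.58 (2.58 to 5.10) in the WT section, and that of Cxcl16 13.4 (10.2 to 18.1) and 1.30 (1.10 to 1.53). For Vcam1 it was 20.4 in the KO and 2.41 in the WT section, for Cxcl12 17.9 and 5.04, for Icam1 9.88 and 2.24, and for Cxcl13 33.3 in the KO section, the deepest WT bin holding 0 UMIs. Cxcr6 alone had like ratios, 3.31 (2.34 to 4.80) in the KO and 3.03 (1.12 to 11.5) in the WT section. The tissue of the rim differed, with 17.7% of KO and 3.23% of WT rim spots being muscle-rich and 17.2% and 30.6% collagen-rich. Within melanocytic-rich spots the rim over interior ratio was 3.64 (2.46 to 5.32) for Cxcl14 and 3.66 (2.95 to 4.52) for Vcam1 in the KO section, against 0.769 (0.443 to 1.30) and 1.16 (0.888 to 1.52) in the WT section. For Cxcl16, Cxcl12 and Icam1 the KO ratio was 2.69, 2.18 and 2.16, and for Cxcr6 (0.780 to 1.93) and Cxcl13 (0.442 to 4.09) its interval includes 1. In the WT section Cxcl12 alone was above 1 beyond its interval, at 1.46 (1.12 to 1.91).

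**Figure D4:**
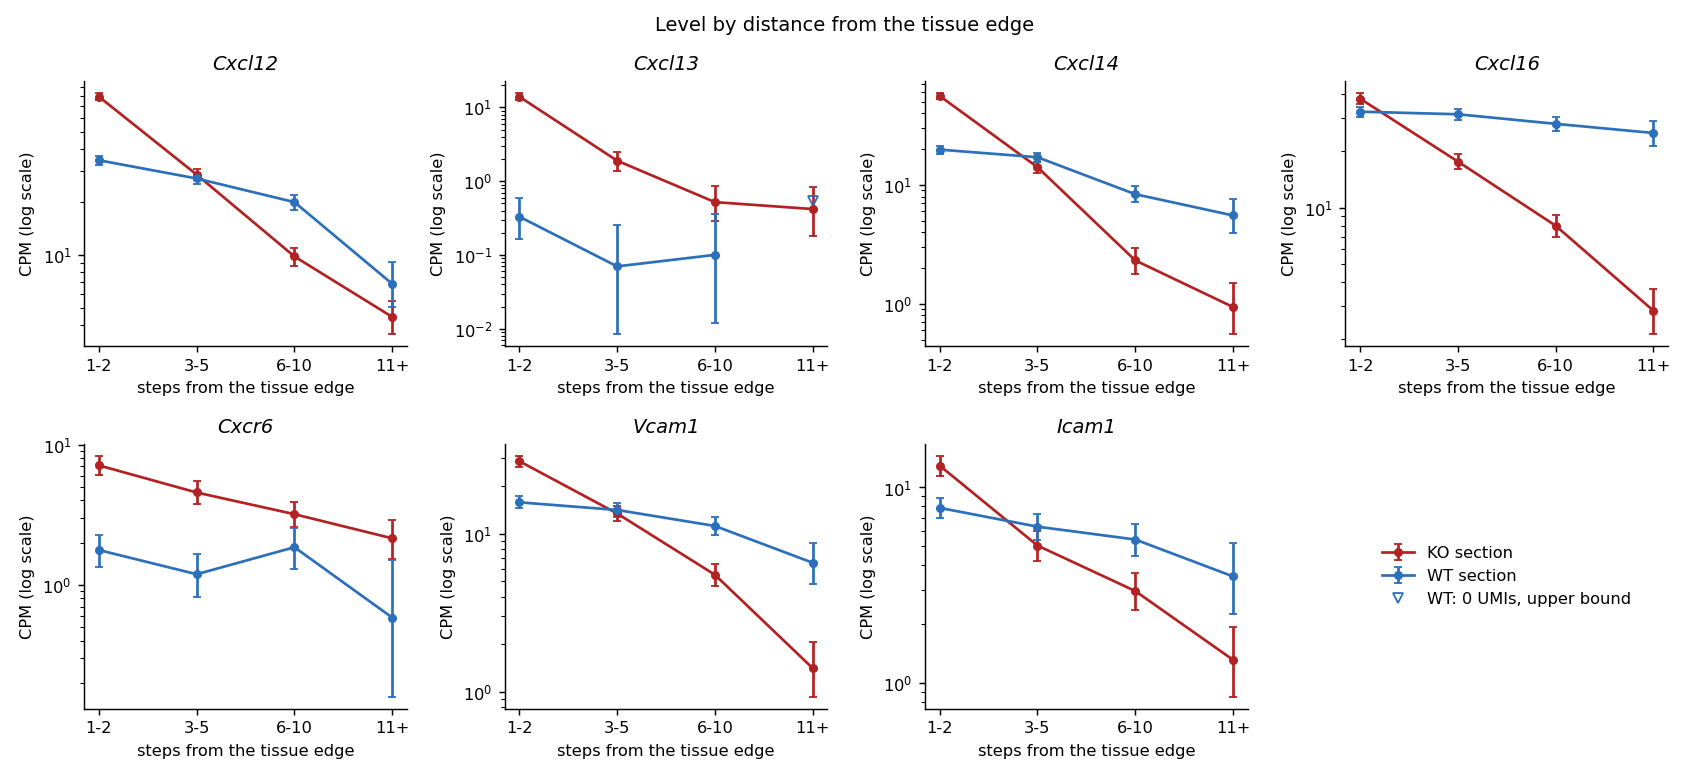
Level of each gene (vertical axis, CPM on a log scale) against distance from the tissue edge in steps of the spot grid (4 bins), KO in red and WT in blue, with 95% counting intervals; the open triangle is the upper bound for 0 UMIs. Rim over deepest ratios are larger in the KO section for Cxcl12, Cxcl14, Cxcl16, Vcam1 and Icam1 and alike for Cxcr6; Cxcl16 is at 2.83 CPM in the deepest KO bin and 24.9 CPM in the deepest WT bin.

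Over all spots of a section, correlations with CD3 genes and among the 7 genes were higher in the KO section on the log scale, for Cxcl16 not by every measure. With CD3 genes this did not hold for each gene within collagen-rich spots. Pearson r of log counts per 10000 with the summed CD3 genes was 0.54 for Vcam1, 0.53 for Cxcl14, 0.49 for Cxcl12, 0.43 for Cxcl16, 0.41 for Cxcr6, 0.38 for Icam1 and 0.31 for Cxcl13 over the 2746 KO spots. Over the 3066 WT spots it was 0.31 for Cxcl16, -0.01 for Cxcl13 and 0.15 to 0.22 for the other 5. The points share a library and an uneven depth, and CD3 genes have more UMIs in the KO section. With ranks in place of log counts the values were 0.16 to 0.37 in the KO section and -0.01 to 0.33 in the WT section, and Cxcl16 stood at 0.33 in each. Over blocks of 6 rows by 12 columns r was 0.56 for Cxcl16 in the KO (99 blocks) and 0.68 in the WT section (119 blocks), and for Cxcl14 0.72 and 0.35. Within the 160 collagen-rich KO spots r with CD3 genes ran from -0.19 (Cxcl13) to 0.31 (Cxcr6), with 0.09 for Cxcl12. Within the 828 collagen-rich WT spots it ran from -0.02 (Cxcl13) to 0.41 (Cxcl16), with 0.22 for Cxcl12. In muscle-rich spots it was 0.42 to 0.58 in the KO section and -0.08 to -0.02 in the WT section, where these spots held 2 CD3 UMIs. With the 12 B cell genes r over spots was 0.07 to 0.21 in the KO and 0.01 to 0.20 in the WT section. Over blocks it was higher, at 0.74 for Cxcl12, 0.73 for Cxcl16, 0.65 for Icam1, 0.62 for Cxcl13 and 0.15 to 0.49 for the other 3 in the KO section, and 0.19 to 0.53 in the WT section. The KO block r with CD3 genes was 0.62 for Cxcl12, 0.63 for Icam1 and 0.37 for Cxcl13. Among the 21 pairs of the 7 genes the median r was 0.374 in the KO and 0.173 in the WT section, and 21 were higher in the KO section; Cxcl12 with Cxcl13 was the highest KO pair (0.54, against 0.07 in the WT section).

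**Figure D5:**
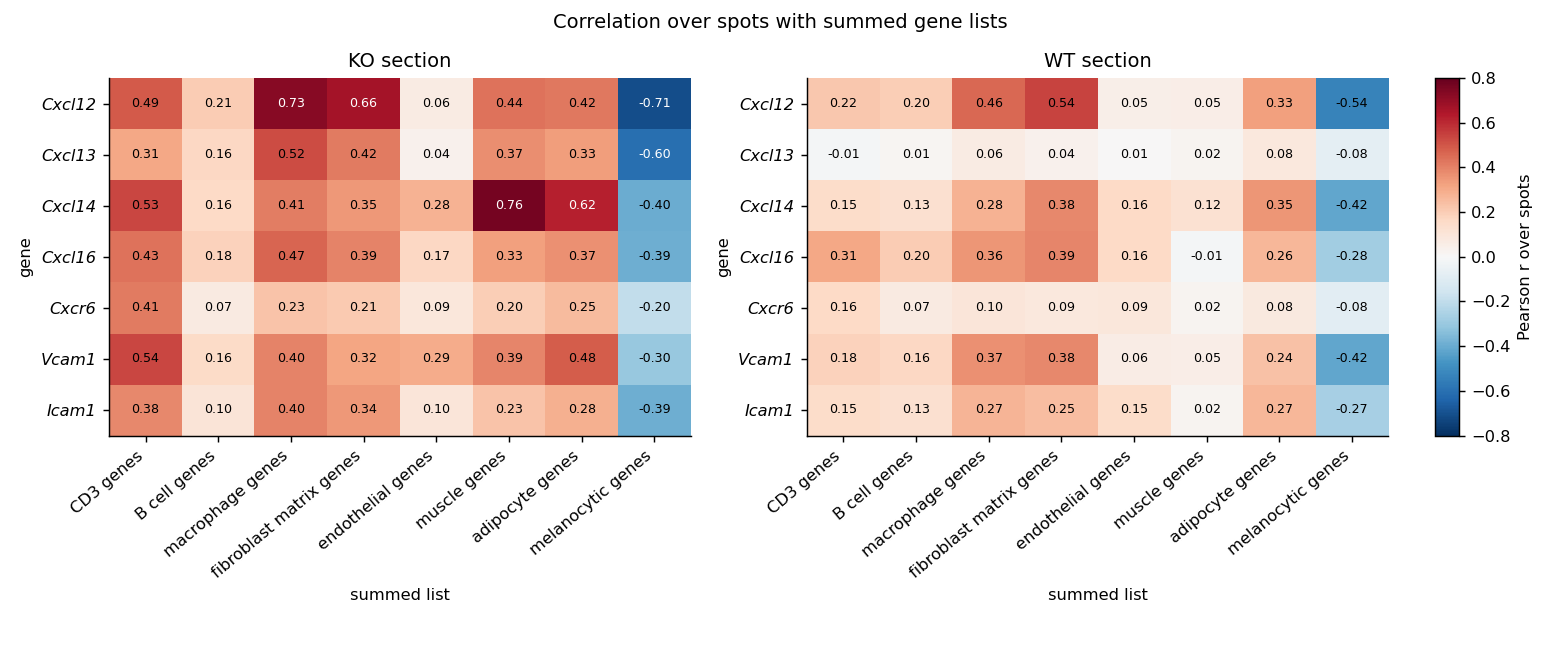
Pearson r over spots of each gene (rows) with 8 summed gene lists (columns) in the KO section (left) and the WT section (right), from log counts per 10000 UMIs; red is positive and blue negative. Cxcl14 reaches 0.76 with muscle genes in the KO section, against 0.12 in the WT section, and Cxcl12 0.73 with macrophage genes in the KO and 0.46 in the WT section.

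The genes whose layout was most like that of a member, among those with at least 500 UMIs in the section, also differed between the sections. For Cxcl14 in the KO section they were Acta1, the skeletal muscle actin (r = 0.79), Car3, Tnnc2, Ttn and Tnnt3, and in the WT section Cyp1b1 (0.48), Hp, Bgn, Igfbp7 and Epas1. For Cxcl12 they were the complement gene C3 (0.80), Saa3, Ccl8, Gpx3 and Serping1 in the KO section, and Gpx3 (0.56), Col3a1, Cpxm1, Col6a2 and Col1a2 in the WT section. Cxcl16 was most like the MHC class II gene H2-Aa (0.53), Cd74 and H2-Eb1 in the KO section and like C1qtnf3 (0.47), Mfap4 and Postn, genes of the matrix and of fibroblasts, in the WT section. Vcam1 was most like H2-Ab1 (0.54), Ms4a4b and the T cell receptor gene Trbc2 in the KO section and like the collagen gene Col6a2 (0.44) in the WT section. Icam1 was most like H2-Eb1 (0.49) in the KO and Fcer1g (0.29) in the WT section.

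Spots with a CD3 UMI after thinning each spot to 5000 UMIs, 276 of 2390 (11.5%) in the KO and 109 of 2671 (4.08%) in the WT section, held more of the 7 genes than spots without in the KO section. Cxcl14 was at 228 CPM in KO spots with CD3 and 15.0 CPM in those without, a ratio of 15.1 (12.5 to 18.4), and at 56.9 and 24.7 CPM in the WT section, a ratio of 2.30 (1.54 to 3.33). For the other KO genes the ratio was 7.43 for Cxcr6, 6.76 for Icam1, 6.48 for Vcam1, 4.94 for Cxcl12, 4.17 for Cxcl16 and 3.71 for Cxcl13. Thinned to 10000 UMIs, the KO ratios of Cxcl14, Cxcl12 and Cxcl13 were 23.8, 9.14 and 7.35, and the WT ratio of Cxcl14 was 3.67. At 5000 UMIs the WT ratios of Cxcl16, Icam1, Cxcl12 and Vcam1 were 2.82 to 3.84. Rim spots made up 49.3% of KO spots with CD3 and 25.8% of those without, and 45.0% and 42.5% in the WT section. Among interior KO spots the ratio of Cxcl14 was 11.6 (7.90 to 17.1), those of Icam1, Cxcl12, Vcam1 and Cxcl16 were 3.63 to 5.60, and those of Cxcr6, 2.80 (0.822 to 7.69), and Cxcl13, 1.77 (0.335 to 6.01), had intervals that include 1.

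Cxcr6 was higher where its ligand was higher in the KO section. In thinned KO spots with 0, 1 and at least 2 UMIs of Cxcl16 it was at 4.40 (3.25 to 5.84), 12.7 (6.35 to 22.8) and 43.2 CPM (18.7 to 85.2). CD3 genes went along, at 29.2, 121 and 232 CPM. In the WT section these sets held 12, 3 and 0 Cxcr6 UMIs, and no order was detectable at this depth, while CD3 genes were at 6.14, 18.2 and 63.8 CPM. Split by Cxcl14 instead, KO spots held 3.13, 30.0 and 51.1 CPM of Cxcr6.

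Spots with UMIs of Cxcl14, Vcam1 and Cxcl16 together numbered 144 in the KO section, of which 105 were at the rim and 78 muscle-rich, and 184 in the WT section, of which 83 were at the rim and 3 muscle-rich. They held 151 CPM of CD3 genes in the KO section, against 20.5 CPM in its other spots, and 30.1 CPM in the WT section, against 6.48 CPM. Spots were not thinned here, so these numbers of spots also depend on depth. The median spot had 36769 UMIs in the KO and 26818.5 UMIs in the WT section.

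The authors' deposited Moran's I, a score of how far neighbouring spots share a level, put Cxcl14 and Cxcl12 at the head of the 7 genes in both sections. In the KO section it was 0.591 for Cxcl14, 87th of 19339 genes, 0.582 for Cxcl12, 0.385 for Vcam1, 0.375 for Cxcl13, 0.348 for Cxcl16, 0.204 for Icam1 and 0.170 for Cxcr6. In the WT section it was 0.442 for Cxcl12, 774th of 19296 genes, 0.409 for Cxcl14, 0.395 for Cxcl16, 0.237 for Vcam1, 0.129 for Icam1, 0.0568 for Cxcr6 and 0.00072 for Cxcl13. Cxcl16 alone had the higher score in the WT section. The median score of all genes was 0.0496 in the KO and 0.0614 in the WT section.

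Receptors and integrins that bind these proteins did not differ in one direction. Of 12 measured, 3 passed 2-fold upward in the KO section and 3 downward, and the median log2 ratio was 0.13, beside a median of 0.15 and shares of 14.9% upward and 4.88% downward over all measured genes. Besides Cxcr6, the higher ones were Itgal, the alpha chain of the T cell integrin LFA-1 that binds Icam1 (741 UMIs in the KO and 281 UMIs in the WT section, ratio 2.48, 2.16 to 2.85), and Itgad, with 73 and 33 UMIs, under 2 times the background in both sections. The lower ones were Itgam and Itgb2, the chains of the myeloid integrin Mac-1 that also binds Icam1 (ratios 0.261 and 0.416), and Ackr3, which takes up Cxcl12 without G protein signalling (0.303, 0.288 to 0.319). Itgb2 pairs with Itgal too. Cxcr4 was near equal, with 15.1 CPM in the KO and 15.0 CPM in the WT section (ratio interval 0.928 to 1.08), and so were the chains of the Vcam1-binding integrin VLA-4 within 1.3-fold, at 1.19 for Itga4 and 1.24 for Itgb1. Cxcr5 had 84 UMIs in the KO and 41 UMIs in the WT section, just over 2 times the background in each.

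Enzymes that act on the ligands differed by gene. Adam10 and Adam17, which shed Cxcl16 and Vcam1, had ratios of 1.07 (1.04 to 1.09) and 1.35 (1.31 to 1.39), and Mmp9 0.751. Dpp4, a peptidase that shortens Cxcl12, was at 3.57 CPM in the KO and 13.2 CPM in the WT section, a ratio of 0.271 (0.239 to 0.306), and in collagen-rich spots at 107 CPM in the KO and 81.7 CPM in the WT section. Of 25 other chemokines measured, 4 passed 2-fold upward and 9 downward in the KO section (median log2 ratio -0.63), beside 14.9% and 4.88% of all measured genes, from Cxcl9 at 5.26 to Ccl24 at 0.0887. Of 16 other adhesion genes 0 passed 2-fold upward and 2 downward (median -0.08), from Jam2 at 1.67 to Cd34 at 0.335.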

How the data were processed

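Spatial gene expression was measured in 1 KO and 1 WT tumour section, and genotypes were taken from the sample labels. The authors deposited a matrix of whole-number UMI counts for each section, not normalized; per the file headers its software was Space Ranger 2.1.0. Per the submitters' processing notes, Space Ranger, featureCounts and the mm10 build were used, with no role given for each. The authors also deposited Moran's I per gene, a score computed by their software, per the file headers; it was used as given. The deposited p-value columns, image files and alignments were not used.

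UMIs were summed over spots and scaled to CPM. Levels carry exact Poisson and ratios exact conditional binomial (Clopper-Pearson) intervals at 95%. Ratio intervals were run on simulated Poisson counts, the noise that they assume, so this checks the calculation only and not the spread of tissue. There 100% of intervals for 50 genes made 2-fold higher and 92% for 50 genes made 4-fold higher held the true ratio. For genes made 2-fold and 4-fold lower it was 94% and 96%, and for unchanged genes 95.3%. Spots were never used as replicates, and PCR and capture noise is not in the intervals. Exclusive classes were assigned in the order muscle-rich and fat-rich (list share at or above the 95th percentile of the spots of both sections), collagen-rich and macrophage-rich (80th), melanocytic-rich (50th) and remaining. Edge distance counts grid steps to a position without tissue or to the frame. Thinning to 5000 UMIs left out 356 KO and 395 WT spots. Correlations use log(1 + counts per 10000). The muscle-rich cutoff was 0.0242% of a spot's UMIs. List medians add 0.5 to each count, and a gene with 50 UMIs or more in the sections together counted as measured.

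The 7 genes and 29 lists were chosen with earlier results of these data known. All genes of the receptor and enzyme lists could be named, of other lists the 3 with the most UMIs and the highest and lowest ratio, and for each member the 5 genes most like it. Genes outside these rules (Tyrp1, Krt5, Krt14, Ms4a1, Cr2, Ltb and Lta) were named after their values were seen, and so were the muscle patches. Alternatives were edgeR 4.0.16 TMM factors (R 4.3.3; 1.08 for KO and 0.927 for WT), other scalings, spot filters, quadrants left out, class cutoffs and thinning depths. Python 3.11.15, numpy 2.4.6, scipy 1.17.1 and matplotlib 3.10.9 were used. Promoter windows are RefSeq's.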

Additional observations from a re-analysis of the deposited data

How the results depend on the processing

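Cxcl13 and Cxcr6 stayed higher and Cxcl16 lower in the KO section under every alternative that gave a ratio (with the probe background taken off Cxcl13 has none, its WT count being below it), with log2 ratios of 1.5 to 5.72, 0.59 to 2.06 and -1.57 to -0.40; their size moved more than counting error. Cxcl12, Cxcl14, Vcam1 and Icam1 had ratios near 1, and their signs depended on the setting; the cause was not tested. The log2 ratio of Cxcl12 turned to -0.071 with TMM factors, -0.083 with median-of-ratios factors and -0.58 in interior spots, and without quadrants to -0.38 (quadrant 4 of both sections), -0.10 (KO quadrant 3), -0.0079 (KO quadrant 4), -0.24 (WT quadrant 2) and -0.23 (WT quadrant 4). Cxcl14 turned to -0.025, -0.037 and -1.07 under the same first 3 settings, to -0.15 without muscle-rich, fat-rich and collagen-rich spots, and without quadrants to -0.21 (quadrant 2 of both), -0.38 (quadrant 4 of both), -0.00033 (KO quadrant 4), -0.28 (WT quadrant 2) and -0.19 (WT quadrant 4). Vcam1 turned to 0.26 in the spots at or above the median melanocytic share, 0.53 without muscle-rich, fat-rich and collagen-rich spots, and without quadrants to 0.43 (quadrant 1 of both), 0.19 (quadrant 3 of both), 0.080 (KO quadrant 1), 0.022 (KO quadrant 2), 0.19 (WT quadrant 1) and 0.15 (WT quadrant 3). Icam1 turned to 0.025 with equal weight per spot, 0.39 without quadrant 1 of both, 0.016 without KO quadrant 2 and 0.24 without WT quadrant 1.

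The count of genes at least 2-fold higher, 2, became 1 with the probe background taken off, without quadrant 4 of both sections and without KO quadrant 4, the first of these by the loss of the Cxcl13 ratio, and 3 without quadrant 1 of both sections or of the WT section, where the log2 ratio of Cxcl14 was 1.06 and 1.15. The count at least 2-fold lower, 0, became 1 with TMM factors, median-of-ratios factors, a 1.5-fold threshold, and without quadrant 2 of both sections, KO quadrant 3, KO quadrant 4, WT quadrant 2 or WT quadrant 4, and 2 in interior spots and without quadrant 4 of both sections. The median log2 ratio of the receptor list turned to -0.091 with TMM factors, -0.011 at a minimum of 200 UMIs and -0.018 with the background taken off. Class levels moved with the class cutoffs: with wider classes (90th and 70th percentiles) and with cutoffs set within each section, the KO over WT ratio of Cxcl14 in muscle-rich spots was 3.62 and 11.1 in place of 16.6, and in collagen-rich spots that of Cxcl12 was 2.71 and 1.40 in place of 4.46 and that of Icam1 1.61 and 1.21 in place of 2.93. With cutoffs set within each section some class ratios also changed their side of 1. In macrophage-rich spots the ratio of Cxcl12 was then 0.402 in place of 3.54 and that of Vcam1 0.911 in place of 3.18. In remaining spots that of Cxcl12 was 0.488 in place of 2.47. TMM and median-of-ratios factors moved the median of all genes by -0.22 and -0.23. Leaving out a quadrant of the KO or the WT section alone was chosen after seeing the data.

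No paired analysis was possible because each genotype has 1 section, and with it no replicate to leave out. Depth limits Cxcl13 and Cxcr6 in the WT section, with 15 and 134 UMIs.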
